A study of Homo sapiens with 6 samples.

Results

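The Kelch-like genes form a family of substrate adaptors for ubiquitin ligases built on cullin 3. The members described here are the genes whose current symbol is KLHL followed by a number, together with KEAP1, the cullin CUL3 itself and the related genes KBTBD2, KBTBD3, KBTBD4, KBTBD6, KBTBD7 and KBTBD8. They number 42 of the 19775 genes measured, 34 by their KLHL symbol and 8 by name. The RefSeq gene table lists 37 such KLHL symbols, and the remaining 3 (KLHL30, KLHL33 and KLHL38) were not analysed here. Each gene was read from 1 probe set, the brightest over all arrays among those naming that gene alone. KLHL24 was also read from each of its 5 probe sets.

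A Kelch-like protein carries a BTB domain that binds CUL3, a BACK domain, and a kelch repeat propeller that holds the substrate. Such chains usually pair up, and the assembled ligase passes ubiquitin to the protein held by the propeller. Attachment of NEDD8 to CUL3 switches the ligase on, and the COP9 signalosome removes it. The best known member, KEAP1, keeps the antioxidant transcription factor NRF2 low in unstressed cells, and several other members act on proteins of the PI3 kinase and mTOR pathway, of mitosis and of autophagy.

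The arrays hold bulk RNA of T47D, a long-established line of luminal breast cancer cells. In 1 group of 3 arrays the cells had received GDC-0941, an inhibitor of the class I PI3 kinases, for 6 hours. The other group of 3 arrays were controls, whose agent is given as none. Neither their time of harvest nor whether they received the solvent is stated. The dose is written as 1 mM, a unit that is uncertain because a micro sign may have been lost. Neither group is described as carrying a transgene or deletion, so the line is the only thing both share by label. All values are log2 RMA signals, and every difference is GDC-0941 minus control on that scale with the standard error (SE) of the limma fit.

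The median signal of an array was 7.34 to 7.38, and correlations between arrays across probe sets were r = 0.9970 to 0.9983 within groups and 0.9917 to 0.9942 between groups. Luminal breast markers, 9 of 9 measured, were bright, with a median level of 13.51. Groups did not overlap for any of the 9, and 5 were called (3 higher, 2 lower), where 61.5% of all genes above the median level did not overlap and 44.6% were called. The basal cytokeratins KRT5 and KRT14 had mean levels of 8.04 and 6.17, and the leukocyte genes PTPRC and CD3E 6.20 and 8.81. Among 4 fibroblast genes COL1A2, VIM and DCN had levels from 7.54 to 8.55, and COL1A1 (10.68) rose by 0.56 (adjusted p 6.53e-05, limma). The muscle genes ACTA1, MYH2 and CKM lay between 5.05 and 6.02, and the neuronal genes RBFOX3 and SNAP25 at 7.34 and 8.80. The part of these markers in the results on the Kelch-like genes was not tested. In bulk RNA, fewer cells of a type and less RNA per cell cannot be told apart.

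GDC-0941 changed 11 of the 42 members at an adjusted p under 0.05 (limma, Benjamini-Hochberg over all 19775 genes). KLHL24, KLHL28, KLHL21, KLHL12, KBTBD2 and KBTBD4 were higher, and KLHL23, KLHL25, KLHL42, KLHL22 and KBTBD8 were lower. The 11 called members are 26.2% of the family, beside 27.8% of all genes. By direction, 6 members rose where 12.1% of all genes did, and 5 fell where 15.6% of all genes did. The family as a whole was therefore called about as often as genes in general, and its 42 differences divided evenly into 21 above and 21 below 0. Its median difference was -0.0015, against -0.017 over all genes, and its median absolute difference was 0.105, against 0.0998.

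The groups did not overlap for 19 members (45.2%), beside 41.5% of all genes, with the treated arrays above the controls in 11 and below them in 8. Calls were more frequent among brighter probe sets. Of the 25 members above the all-gene median level of 8.20, 9 were called (36.0%), and of all 9887 genes above it 44.6% were. Below it, KLHL23 and KBTBD8 were called among 17 members (11.8%). Calls were few below that level among all genes too, since 4408 of the 5488 genes called lay above it. Without KLHL24, the largest difference in the family was 0.63.

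**Figure D1:**
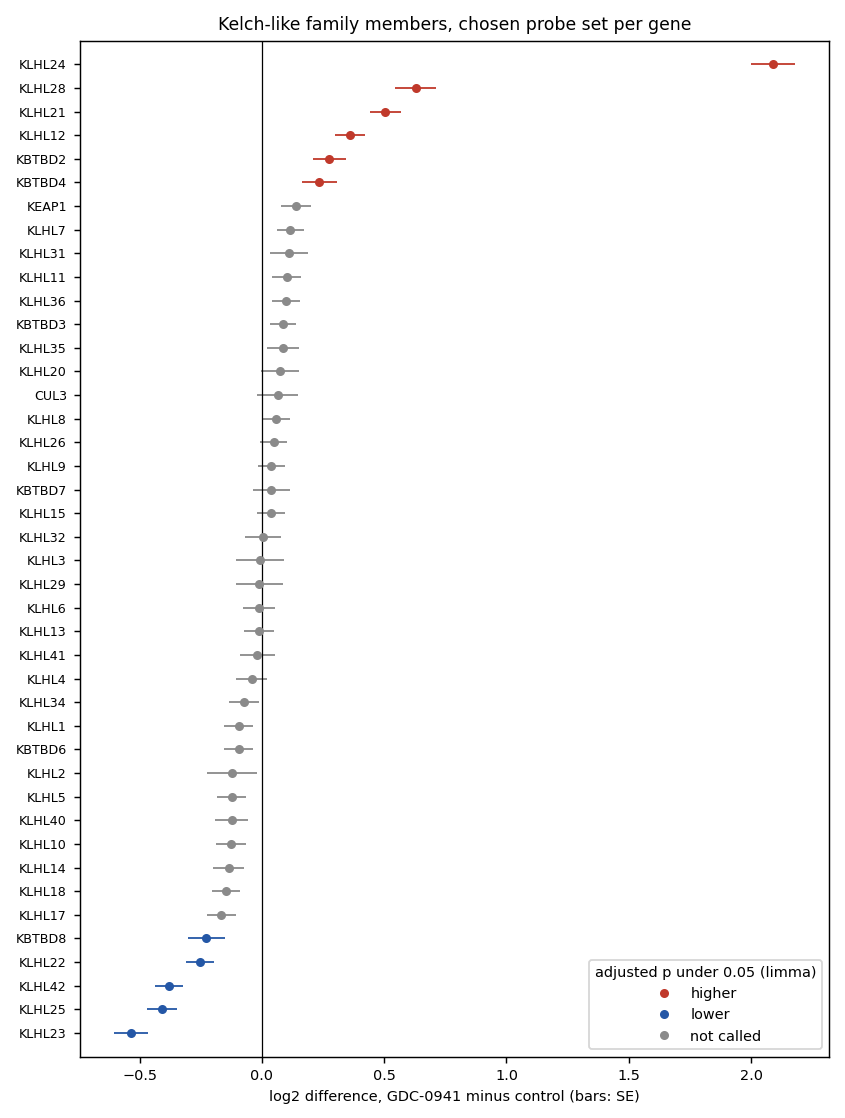
Log2 difference, GDC-0941 minus control, for the chosen probe set of each of the 42 members, with bars for the standard error; 3 arrays per group, coloured by call at adjusted p under 0.05. KLHL24 lies at 2.09, apart from the other members, which run from -0.54 for KLHL23 to 0.63 for KLHL28.

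KLHL24 is an adaptor known from skin, where it controls the turnover of keratin 14 and where variants that stabilise it cause a blistering disease with heart muscle involvement. Its chosen probe set read 10.25, 10.13 and 10.08 on the treated arrays and 8.10, 7.85 and 8.24 on the control arrays. Every treated array lay well above every control array, by many times the spread within either group. The difference was 2.09 (SE 0.090, 95% interval 1.89 to 2.29, n = 3 per group), a 4.26-fold rise with an adjusted p of 9.76e-08 (limma). No other gene on the arrays had a difference as large in the upward direction.

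The 5 KLHL24 probe sets were all called higher, but their differences were unequal. The dimmest in controls, 242088_at, went from 4.99, 5.12 and 5.18 to 8.27, 8.10 and 8.15, a difference of 3.07. The arrays carry no detection call, so whether its control values lie above background is unknown and no fold is given for it. Probe set 221986_s_at went from 7.30, 7.20 and 7.29 to 10.18, 10.08 and 10.12, a 7.29-fold rise, and 226158_at from 7.76, 7.76 and 7.73 to 10.55, 10.45 and 10.32, a 6.45-fold rise. These 3 probe sets gave tighter control values and larger differences than the chosen probe set, so the difference read for KLHL24 depends on which probes are used. The fifth, 206551_x_at, whose suffix marks probes that can bind other transcripts, went from 7.93, 8.16 and 8.02 to 8.48, 8.21 and 8.36. Its treated arrays were again above all controls, but by only 0.32 (SE 0.084, adjusted p 0.0217 over the 54613 probe sets, limma). KRT14, the keratin that KLHL24 regulates as protein, differed by -0.16 (95% interval -0.31 to -0.01, adjusted p 0.114, limma) at a level of 6.17.

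**Figure D2:**
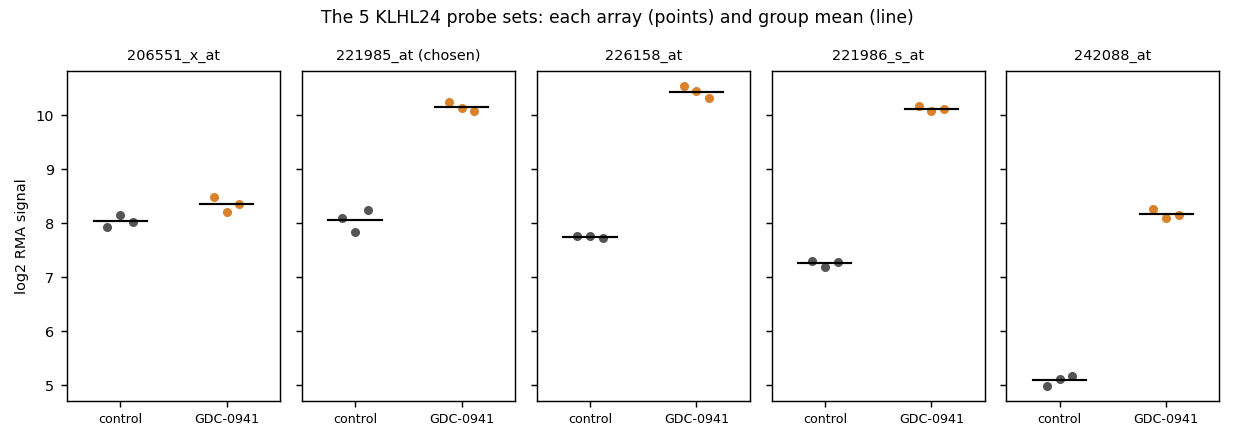
Log2 RMA signal of each of the 5 KLHL24 probe sets, with 1 point per array and a line at the mean of the 3 arrays of a group. In 4 probe sets the treated arrays lie far above every control array, and in 206551_x_at the groups are close but do not overlap.

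KLHL24 is shown with the stretch before its start site because no other gene rose as far. The 250 bases before its listed start, on the plus strand at chr3:183635373-183635622 (RefSeq, GRCh38.p14), have a GC content of 60.8% and read, with no part capitalised:
KLHL24: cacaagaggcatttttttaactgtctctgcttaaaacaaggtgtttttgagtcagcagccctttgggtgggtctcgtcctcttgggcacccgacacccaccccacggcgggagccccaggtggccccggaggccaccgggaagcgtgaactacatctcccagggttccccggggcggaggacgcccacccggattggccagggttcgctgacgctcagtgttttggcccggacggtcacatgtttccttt
FOXO factors, which PI3 kinase signalling through AKT keeps out of the nucleus, bind the forkhead core GTAAACA. These letters, searched on both strands of 300-base windows around RefSeq starts, occur in 3.42% of 35116 windows. They are absent from the KLHL24 window, as from most windows. Among the 48 windows of the 36 members in the table they occur in 1 (2.08%), that of KLHL3. Binding of FOXO factors was not tested. KLHL3, the adaptor of the WNK kinases that set salt transport in the kidney, differed by -0.01 (95% interval -0.23 to 0.21) and was not called.

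CUL3, the scaffold that every adaptor of the family shares, was bright and was not called. It read 11.56, 11.20 and 11.29 on the treated arrays and 11.24, 11.25 and 11.36 on the controls. The groups overlapped, and the difference of 0.06 had a 95% interval of -0.12 to 0.25 (adjusted p 0.649, limma), which leaves room for a change of either sign up to about that size.

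KEAP1, the sensor of oxidative and electrophile stress, read 9.89, 9.73 and 9.84 under GDC-0941 and 9.72, 9.65 and 9.67 in controls. Its treated arrays all lay above the controls, but only narrowly. The difference was 0.14 (95% interval 0.01 to 0.27) and missed the threshold (adjusted p 0.118, limma). KEAP1 was called higher under 4 alternatives, among them leaving out treated array 2 (0.19, adjusted p 0.0413, limma). NFE2L2, which encodes NRF2, differed by 0.15 (adjusted p 0.0609, limma), and its other probe sets did not all move with it, since 1 of 3 was called lower. SQSTM1, the autophagy receptor that binds KEAP1, rose by 0.40 (SE 0.056, adjusted p 0.000254, limma). Of the 18 NRF2 target genes measured, 3 rose and 6 fell. Genes above the all-gene median level, as 13 of these 18 are, were called in 44.6% of cases over all genes, and all genes in 27.8%. The largest of these differences was that of OSGIN1, an oxidative stress response gene, which fell by 0.86. FTL, the ferritin light chain, rose by 0.60 and SRXN1, which encodes sulfiredoxin, fell by 0.45. The median of the list was -0.06.

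NRF2 binds the antioxidant response element, whose core TGACNNNGC was also searched on both strands. It occurs in 13.3% of all RefSeq windows and in 8 of the 48 windows of members (16.7%), those of KEAP1, KLHL12, KLHL13, KLHL15, KLHL18, KLHL21, KLHL32 and KLHL40. Of these 8 genes KLHL12 and KLHL21 were called, beside 11 of 42 members and 27.8% of all genes. Their stretches are shown as those of the called members with a match, and those of KEAP1 as the regulator of NRF2. The other 5 genes were not called. The core is in capitals, and all 4 stretches are on the minus strand of GRCh38.p14 (RefSeq): KLHL21 at chr1:6603035-6603063, KLHL12 at chr1:202928637-202928665, and KEAP1 at chr19:10502807-10502835 and chr19:10502784-10502812. The second KEAP1 stretch holds the core in reverse complement and overlaps the first.
KLHL21: cggacagcggTGACTCAGCctgcggagcc
KLHL12: tcagtggtgaTGACAGGGCccattatgat
KEAP1 first: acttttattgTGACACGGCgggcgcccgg
KEAP1 second: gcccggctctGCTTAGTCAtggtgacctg
The letters TGACTCA within the KLHL21 match are also the AP-1 site, so the motifs overlap there. A match describes the letters only.

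Among members that act on the PI3 kinase and mTOR pathway, KBTBD2 rose while KLHL22 and KLHL25 fell. KBTBD2 controls the amount of p85 alpha, the regulatory subunit of PI3 kinase. It read 10.05, 9.94 and 9.97 with GDC-0941 and 9.69, 9.61 and 9.83 without. The groups did not overlap, the difference was 0.28 (SE 0.067, adjusted p 0.00881, limma), and its 3 probe sets were all called higher at 0.23 to 0.28. PIK3R1, which encodes p85 alpha, differed by 0.06 (95% interval -0.12 to 0.25) and was not called, although 1 of its 3 probe sets was called higher.

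KLHL22 targets DEPDC5, part of the GATOR1 complex that restrains mTORC1 when amino acids are scarce. Its treated arrays read 8.66, 8.64 and 8.69 and its control arrays 8.85, 8.94 and 8.95. All treated values were below all controls, and the fall was small but larger than the spread (-0.25, SE 0.056, adjusted p 0.00504, limma). Of its 5 probe sets 2 were called, both lower, and the other 3 had differences from -0.23 to -0.03. DEPDC5 differed by 0.05 and was not called.

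KLHL25 is the adaptor that removes the unphosphorylated form of the translation repressor 4E-BP1, and it also acts on the lipogenic enzyme ACLY. It read 8.19, 8.35 and 8.33 under GDC-0941 against 8.67, 8.68 and 8.75 in controls. The groups were separated by more than either group's range, with a difference of -0.41 (SE 0.062, 1.33-fold lower, adjusted p 0.000389, limma). EIF4EBP1, which encodes 4E-BP1, fell beside it by 0.43 (adjusted p 0.000223, limma), and ACLY differed by -0.13 (adjusted p 0.129, limma), with 2 of its 3 probe sets called lower.

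Several members serve mitosis and the cytoskeleton. KLHL21 moves Aurora B to the central spindle and directs it to ubiquitination by CUL3. It has 1 probe set, which read 9.21, 9.08 and 9.18 with the inhibitor and 8.68, 8.55 and 8.73 without. No treated array came near the controls, and the difference was 0.51 (SE 0.065, 1.42-fold, adjusted p 0.000134, limma). KLHL9 and KLHL13, which together act on Aurora B earlier in mitosis, differed by 0.04 and -0.01 with 95% intervals of -0.08 to 0.16 and -0.15 to 0.12, and neither was called. AURKB, the gene of Aurora B, fell by 0.22 (adjusted p 0.0288, limma), but in the fit over probe sets 0 of its 2 were called.

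KLHL42 controls the level of the microtubule severing enzyme katanin in dividing cells. Its treated arrays read 9.74, 9.60 and 9.62 and its controls 10.03, 10.03 and 10.04. The controls were almost identical and lay above every treated array, with a difference of -0.38 (SE 0.058, adjusted p 0.000439, limma). All 3 of its probe sets fell, by 0.38 to 0.40. KATNA1, the gene of the katanin subunit it removes, differed by 0.01. KLHL18, which acts on Aurora A at the entry into mitosis, differed by -0.15 (adjusted p 0.0757, limma), although its treated arrays all lay below the controls.

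KLHL12 monoubiquitinates SEC31A, a coat protein of COPII vesicles, with the calcium sensors PEF1 and PDCD6 as co-adaptors, and it also acts on the Wnt signal transducer Dishevelled. It read 11.49, 11.37 and 11.49 on the treated arrays and 11.08, 11.02 and 11.15 on the controls. The groups were clearly apart, by 0.36 (SE 0.062, adjusted p 0.00092, limma). Its dimmer probe set differed by 0.13 and was not called (adjusted p 0.176, limma). Its partners divided, since SEC31A rose by 0.20 and the Dishevelled gene DVL2 by 0.32, while PEF1 fell by 0.38 and PDCD6 by 0.19. For SEC31A and for DVL2, 1 of 2 probe sets was called higher. The PDCD6 call was narrow (adjusted p 0.0476, limma), and in the fit over probe sets 0 of its 3 were called. The other Dishevelled genes, DVL1 (-0.07) and DVL3 (0.02), were not called.

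KBTBD6 and KBTBD7 form a complex that binds GABARAP proteins and removes TIAM1, an activator of the GTPase RAC1. Neither was called, at -0.10 and 0.04. GABARAPL1, an autophagy protein of the group they bind, rose by 0.62 (adjusted p 1.5e-05, limma), the largest rise among the substrates and partners, and TIAM1 differed by -0.15 (adjusted p 0.0538, limma). GABARAP and GABARAPL2, of the same group, differed by 0.09 and 0.13 and were not called. KLHL20 ends autophagy by targeting ULK1, and ULK1 rose by 0.35 (adjusted p 0.00166, limma). The reading for KLHL20 itself depended on the probe set. Its chosen probe set read 9.21, 9.01 and 9.12 against 8.89, 9.06 and 9.16, which overlap. Another, 204176_at, read 9.37, 9.21 and 9.14 against 8.75, 8.85 and 8.69 and was called higher (0.48, adjusted p 0.00102 over probe sets, limma).

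KBTBD4 is an adaptor whose altered forms, found in medulloblastoma, direct the CoREST chromatin repressor complex to degradation. It read 9.43, 9.18 and 9.32 with GDC-0941 and 9.09, 9.13 and 9.00 in controls. The lowest treated array was only just above the highest control. The difference was 0.24 (SE 0.070, adjusted p 0.0255, limma), its second probe set differed by 0.07, and the call was lost when any of 4 arrays was left out (treated 1 or 3, control 1 or 3; adjusted p 0.0512 to 0.0865, limma).

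KBTBD8 modifies the ribosome assembly factors TCOF1 and NOLC1 in neural crest specification. Its single probe set was among the dimmest of the family, at 5.49, 5.25 and 5.26 treated and 5.49, 5.64 and 5.55 control. The groups met at 5.49, and the difference of -0.23 passed the threshold only narrowly (adjusted p 0.0395, limma). The call was lost with a replicate block (adjusted p 0.0790, limma) and without treated array 2 or 3 or control array 2 or 3 (adjusted p 0.0737 to 0.148, limma). TCOF1 fell by 0.47 and NOLC1 by 0.58, and NOLC1 was called lower by all 3 of its probe sets.

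KLHL28 and KLHL23 have few described substrates. KLHL28 had the next largest rise after KLHL24, reading 9.28, 8.95 and 9.01 treated against 8.34, 8.50 and 8.50 in controls. The groups were apart although the first treated array stood above the other treated ones, and the difference was 0.63 (SE 0.085, 1.55-fold, adjusted p 0.00018, limma). Its other 2 probe sets differed by 0.11 and 0.20 and were not called, and the mean over all 3 probe sets gave 0.31. KLHL23 had the largest fall, from 7.99, 7.87 and 8.10 to 7.52, 7.36 and 7.47. Its treated arrays lay wholly below the controls, by 0.54 on average (SE 0.070, 1.45-fold lower, adjusted p 0.000154, limma).

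**Figure D3:**
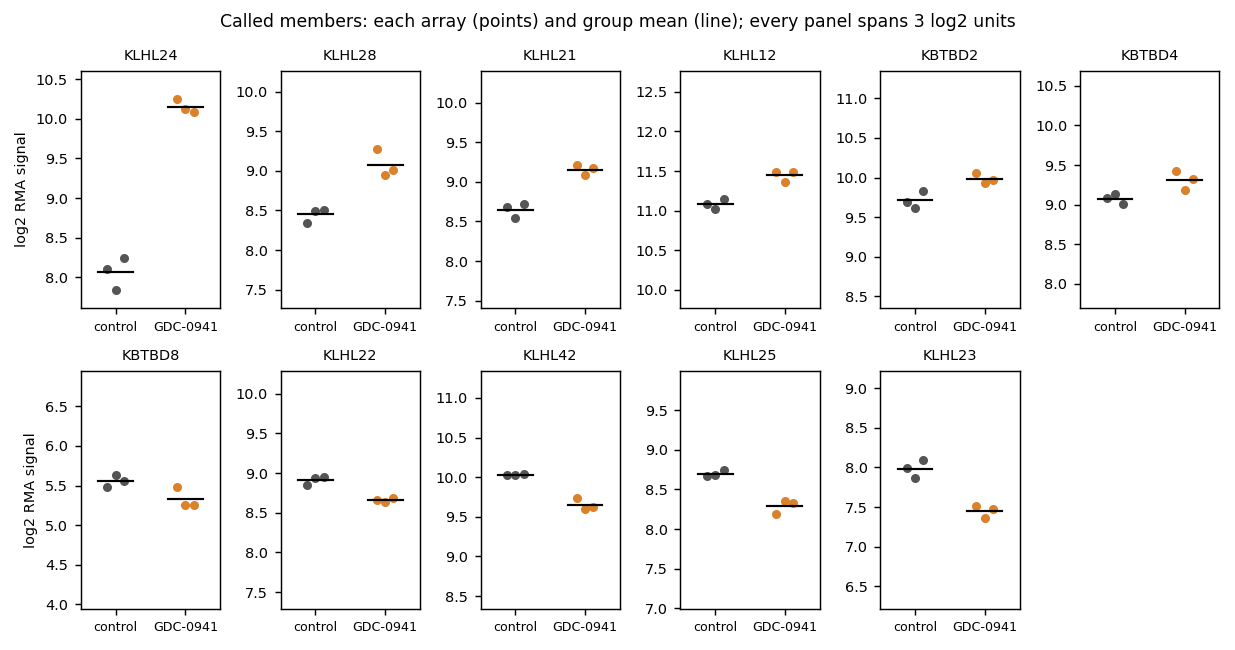
Log2 RMA signal of the 11 called members, with 1 point per array and a line at the mean of 3 arrays; every panel spans 3 log2 units. The groups are apart in 10 of the 11 panels and meet in KBTBD8.

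The 31 members that were not called had differences from -0.17 to 0.14, and the smallest adjusted p among them was 0.0638 (KLHL17, an actin binding adaptor first described in brain). At an unadjusted p under 0.05 there were 3 (KEAP1, KLHL18 and KLHL17). Their 95% intervals reached no lower than -0.35 and no higher than 0.28, so larger changes of these probe sets lie outside the intervals. Members known from other tissues were in this group: KLHL40 and KLHL41 of the skeletal muscle sarcomere (-0.12 and -0.02), KLHL31 of muscle (0.11), KLHL10 of developing sperm (-0.13), KLHL1 of neurons (-0.09) and KLHL6 of B cells (-0.01). Their mean levels ran from 5.93 to 7.12, below the all-gene median of 8.20, and these arrays carry no detection call. KLHL11, the target of autoantibodies in a brain disorder linked to testicular tumours, was the brightest member at a mean of 11.88 and differed by 0.10.

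Of the 42 members, 30 have several probe sets, and the family holds 100 in all. Among the 100, 22 were called (13 higher, 9 lower), beside 18.8% of all probe sets on the arrays. These counts hold all 5 probe sets of KLHL24 and all 3 of KBTBD2 (higher), and all 3 of KLHL42 (lower). A single gene can thus count several times. No member had probe sets called in both directions. A chosen probe set and another one disagreed in KLHL7, a gene mutated in inherited retinal degeneration. Its brightest probe set read 10.19, 10.10 and 10.15 treated against 10.02, 10.03 and 10.05 control, higher by 0.12 but not called. Probe set 220239_at went the other way, from 9.08, 9.12 and 9.26 to 8.76, 8.56 and 8.72, and was called lower (adjusted p 0.00104 over probe sets, limma). Besides KLHL20 and KLHL7, KLHL18 was the only uncalled member with a called probe set (-0.20, adjusted p 0.0363, limma).

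**Figure D4:**
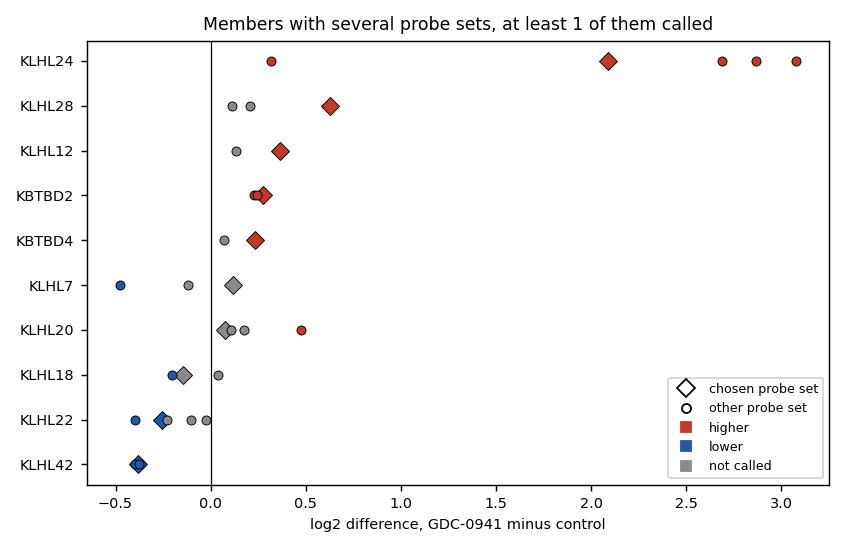
Log2 difference of every probe set of the 10 members that have several probe sets and at least 1 called; diamonds are the chosen probe sets and colour gives the call. The probe sets of KBTBD2 and KLHL42 lie close together, while those of KLHL24 run from 0.32 to 3.07 and those of KLHL7 lie on both sides of 0.

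The genes that work with the family were read from lists of its relatives, its ligase and its substrates. Their counts stand beside 27.8% of all genes called (12.1% higher, 15.6% lower) and 44.6% of genes above the median level, where most listed genes lie. Of 4 other BTB-kelch genes measured 1 was called, IVNS1ABP, an adaptor bound by an influenza protein, which fell by 0.46 (SE 0.063). Of 20 other BTB genes listed as CUL3 adaptors, 19 of them above the median level, 5 rose and 3 fell (40.0% called). The count of falls was 1 without treated array 2 or 3 or control array 2 or 3. The largest differences were rises of RHOBTB1 (0.91), RHOBTB3 (0.62) and BACH1 (0.71). BACH1 has a BTB domain but is known as a repressor that competes with NRF2 for its sites, not as an established adaptor. Of its 3 probe sets 1 was called higher. SPOP, the adaptor often mutated in prostate cancer, rose by 0.55.

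The ligase core and its NEDD8 cycle held calls in both directions. Of 8 cullins, CUL4B rose by 0.75, CUL1 fell by 0.50 and the others, CUL3 among them, were not called. The fall of CUL1 depended on the probe set, since 1 of its 2 was called lower. No cullin was called lower when probe sets without a cross-hybridisation suffix were preferred. Of 19 genes of the CUL3 ligase and of neddylation, 15 of them above the median level, 8 fell and 1 rose (47.4% called). The 1 rise was lost when any array but treated array 2 was left out. The largest falls were those of UBE2F (0.57), the NEDD8 ligase helper DCUN1D5 (0.52) and NAE1 (0.47), a subunit of the enzyme that activates NEDD8. UBE2F carries NEDD8 mainly to the cullin CUL5, not to CUL3. Of the 10 COP9 signalosome genes, all above the median level, 6 fell, led by COPS9 (0.42), COPS3 (0.39) and GPS1 (0.36). The count of falling signalosome genes was 3 without treated array 2 (where 1 gene rose) and 3 without control array 3. It was 2 when probe sets without a cross-hybridisation suffix were preferred, and 1 of the 2 COPS9 probe sets was called. Several of these calls thus depend on single arrays or on the choice of probe set. The median difference was -0.13 for the ligase list and -0.18 for the signalosome, beside -0.017 for all genes.

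Of 37 substrates and partners of members, 28 of them above the median level, 6 rose and 7 fell (35.1% called). Their median was 0.01, with the largest differences in GABARAPL1, NOLC1 and TCOF1, and 4 fell without treated array 3 or control array 2 or 3. Of 15 other genes with kelch repeats, 12 of them above the median level, 5 rose and 2 fell (46.7% called). LZTR1, which carries BTB domains as well, is among the 15 and was not called. KLHDC2, a cullin 2 adaptor that recognises protein ends, rose by 0.63, KLHDC1 by 0.55, and KLHDC4 fell by 0.35. KLHDC1 was dim, at a mean of 6.49, with 1 of its 2 probe sets called. For KLHDC4 3 of 6 probe sets were called lower. No gene of this list was lower when probe sets without a cross-hybridisation suffix were preferred.

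**Figure D5:**
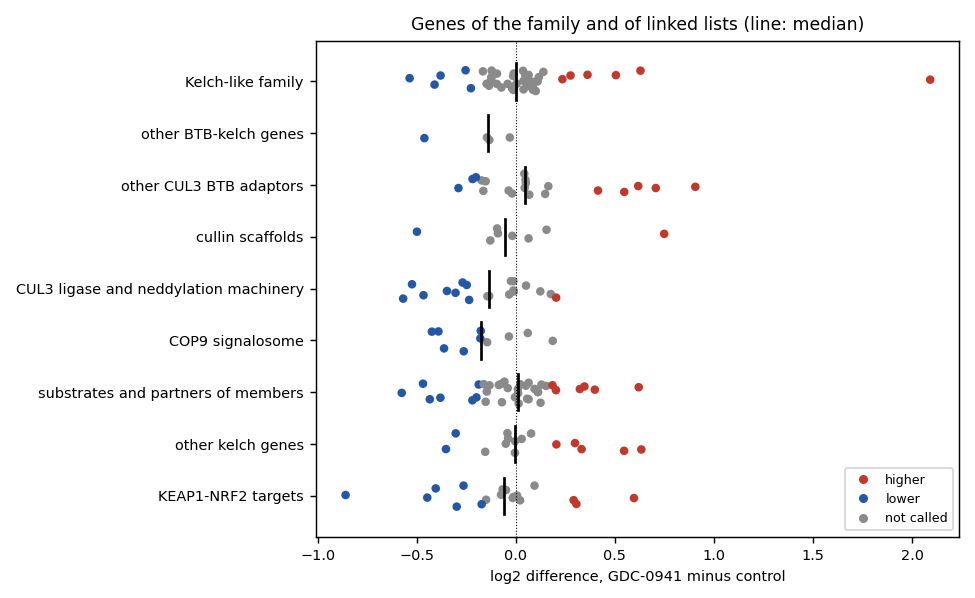
Log2 difference of each gene of the Kelch-like family and of 8 linked lists, with 1 point per gene coloured by call and a bar at the median of each list. The family's median lies at -0.0015, the signalosome's at -0.18, and KLHL24 lies beyond every other point.

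These directions rest on RMA, which sets all arrays to a common distribution. Centring the arrays instead on their 18 hybridisation control probe sets added 0.17 to every difference, so that the all-gene median went from -0.017 to 0.15. The members then split into 15 higher and 2 lower (88.2% of calls higher, from 54.5%), and all genes into 5688 higher and 895 lower (86.4%, from 43.7%). The shift of 0.17 is the same for every gene, and no error was estimated for it. The fit treated the genes separately, so counts and adjusted p-values under this centring do not allow for an error that all genes share. KLHL23 (-0.37) and KLHL25 (-0.24) were still called lower, while KLHL42 (-0.21, adjusted p 0.0775, limma), KLHL22 (-0.084, adjusted p 0.488, limma) and KBTBD8 (-0.057, adjusted p 0.642, limma) were not. The falls in the lists shrank as well: under this centring 3 ligase genes and 1 signalosome gene were lower, with 3 and 1 higher. Rises and falls read from RMA values are thus both relative to the other genes on the arrays.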

How the data were processed

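The authors deposited 1 table of log2 values, 54675 probe sets by 6 arrays, made with RMA per the submitters' processing notes; the sources used here do not give its version. The log2 scale was read from the values (3.00 to 14.81). Of 54613 probe sets that are not controls, 41091 named 1 gene, 1801 several and 11721 none; 41037 symbols were updated through Entrez identifiers with the RefSeq table of GRCh38.p14. The contrast was fitted with limma 3.58.1 under R 4.3.3 (functions lmFit and eBayes, two-sided tests) over 19775 genes and, separately, all 54613 probe sets, with no filter on dim probe sets. The number of arrays limits the precision; the median SE was 0.0641. Whether replicates came from separate cultures is not stated. The p-values therefore measure only how these samples vary, which may be technical. Members and lists were chosen with earlier results of these data known. Arrays were described value by value for KLHL24 (every probe set), KEAP1, CUL3, KBTBD2, KLHL22, KLHL25 and up to 8 called members per direction; of each list the 3 called genes with the largest difference were named, and substrates beside their adaptor. SPOP and the array values of KLHL7 and KLHL20 were added after their values were seen. The results were recomputed with each array left out, with a replicate block, with other centring, normalization and probe set rules, and with a level filter, a variance trend or a stricter threshold. Figures used matplotlib 3.10.9.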

Additional observations from a re-analysis of the deposited data

How the results depend on the processing

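KLHL24 stayed called higher under all 14 alternatives, at 1.98 to 2.26, and leaving out single arrays gave 1.98 to 2.18. Of the 11 called members 7 kept their call wherever they were tested (KLHL23 and KBTBD8 lie below the level filter and have no value under it), none of the 11 changed sign, and the exceptions were KBTBD4, KBTBD8, KLHL22 and KLHL42. Members called numbered 15 higher and 2 lower after centring on the hybridisation controls, and 9 higher and 4 lower after quantile normalization again. Calls after that centring do not allow for the error of the shift that all genes share. Leaving out single arrays gave 5 to 7 higher and 4 to 6 lower. With a replicate block 6 were higher and 4 lower, the lost call being KBTBD8. Counts over all genes are given only for the main fit and for the hybridisation centring. The other changes in count can therefore not be read as particular to the family. The labels do not pair the replicate numbers: deviations of same-numbered arrays correlated at -0.346 to 0.187, and 1 of 6 arrays correlated best with its own number.

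Of the 31 uncalled members, 11 were called under some alternative and 22 changed sign under some. No share of all genes stands beside these counts. KLHL20 was called higher when probe sets without a cross-hybridisation suffix were preferred (0.48) and with the mean of all its probe sets (0.21). In the lists, counts over all alternatives ran from 0 to 6 lower for the BTB adaptors, 3 to 9 lower for the ligase list, 1 to 7 lower for the signalosome, 3 to 14 higher and 3 to 9 lower for the substrates, 3 to 6 higher and 0 to 3 lower for the other kelch genes, and 3 to 7 lower for NRF2 targets. With 3 arrays per group, a dim probe set near background gives only a coarse reading.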
